A study of Solanum tuberosum with 12 samples.

Results

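The miR166 sequences of potato were 2 of the 222 distinct mature sequences, and 4 of the 324 predicted loci, in a list of miRNAs predicted from small RNA reads of leaf and stolon. The members were chosen by their identifiers, PotatoMir1005257311 and PotatoMir1005257691, with their read numbers already known. These are the 2 sequences with the most reads in the list, so their rank and share are given as a description and no test was made on them. PotatoMir1005257311 was predicted at 3 loci and PotatoMir1005257691 at 1 locus. Each of the 4 loci fell on a superscaffold of its own, of the 197 superscaffolds that carry a locus of the list.

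The reads came from 12 small RNA libraries of clone ADG573, a potato of the Andigena group that was propagated in vitro, so all plants were of 1 clone. The 4 groups of 3 biological replicates each were SD stolon, SD swollen stolon, SD leaf and LD leaf, where SD is short day and LD is long day. All plants, those of LD leaf included, first had 4 weeks of long days in a glasshouse and were then moved to SD or LD cabinets at 20 °C. The labels put sampling at 8 days after the move for all 4 groups, while the methods of the study give later days for the stolons. The list pools the libraries, so it holds 1 read number per sequence and no value of a group. Levels in leaf and stolon, the effect of day length, the depth of the single libraries and the spread between replicates were therefore not analysed here.

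Plant miRNAs are cut from the stem of a folded precursor by a Dicer-like enzyme. The cut leaves a short duplex of the mature miRNA and the star, the strand that lay opposite it in the stem. The mature strand is then loaded into an Argonaute protein and guides it to transcripts with a complementary site, and the star is mostly lost. miR166, with its close relative miR165, is among the most conserved plant miRNAs. In Arabidopsis it targets transcripts of class III homeodomain-leucine zipper (HD-ZIP III) transcription factors such as PHABULOSA, PHAVOLUTA and REVOLUTA, which set the upper side of the leaf and act in meristems and vascular tissue.

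The 2 mature sequences are shown to compare them base by base. They are written as DNA, with T for U, and the seed (bases 2 to 8) is in capitals.
PotatoMir1005257311: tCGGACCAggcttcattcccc
PotatoMir1005257691: tCGGACCAggcttcattcctc
Both were 21 nt long and shared 20 of their bases, the seed included. They differed by C20T, with positions counted from 1 at the 5′ end and the base of PotatoMir1005257311 given first. The GC content was 61.9% in PotatoMir1005257311 and 57.1% in PotatoMir1005257691. Both began with T (U in the RNA), as did 34 of the 59 distinct 21-nt sequences of the list (57.6%). A 5′ U is the base preferred by AGO1, the Argonaute that binds most plant miRNAs.

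The 4 precursors are shown because they carry all differences between the loci other than C20T. The mature sequence is in capitals, and each name is that of the RefSeq gene matched to the locus by length and start.
MIR166A: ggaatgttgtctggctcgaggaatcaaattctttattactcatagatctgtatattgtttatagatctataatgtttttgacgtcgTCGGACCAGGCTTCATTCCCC
MIR166C: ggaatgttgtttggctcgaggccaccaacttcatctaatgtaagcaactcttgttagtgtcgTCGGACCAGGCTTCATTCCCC
MIR166D: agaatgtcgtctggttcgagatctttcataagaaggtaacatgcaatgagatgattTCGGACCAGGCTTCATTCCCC
MIR166B: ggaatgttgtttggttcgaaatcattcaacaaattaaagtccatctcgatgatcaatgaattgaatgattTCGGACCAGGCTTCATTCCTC
In every one of the 4 the mature sequence was the last 21 bases, so it lay on the 3′ arm and the star at the 5′ end. The mature sequence lay on the 3′ arm at 157 of all 324 loci (48.5%) and at 60 of the 100 loci of 21 nt (60%).

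Positions refer to the DM potato superscaffolds as the list gives them. DM is a plant of the Phureja group, not the clone ADG573 that gave the reads. Loci, precursors, stars and folds are therefore those of DM, and they were not compared with ADG573. MIR166A lay on the plus strand of PGSC0003DMB000000010, with the precursor at 3902790 to 3902896 and the mature sequence at 3902876 to 3902896. MIR166C lay on the plus strand of PGSC0003DMB000000147, with the precursor at 464575 to 464657 and the mature sequence at 464637 to 464657. These 2 loci both gave PotatoMir1005257311. The last of its loci, MIR166D, was on the minus strand of PGSC0003DMB000000665, with the precursor at 48075 to 48151 and the mature sequence at 48075 to 48095. MIR166B, the locus of PotatoMir1005257691, was on the minus strand of PGSC0003DMB000000125, with the precursor at 535829 to 535919 and the mature sequence at 535829 to 535849. Whether the loci lie in exons, introns or between genes was not analysed here.

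The gene names came from RefSeq, assembly SolTub_3.0. A locus was matched when a miRNA gene of equal length had a start position within 2 bases of its own. Superscaffold and strand were not compared. All 4 loci matched 1 gene each, with starts 1 base before the list at MIR166A and MIR166C and 2 bases after it at MIR166D and MIR166B. In the whole list 198 of 324 loci (61.1%) matched 1 gene and 0 matched more than 1. The match rests on length and start, since the RefSeq table held no sequences.

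No other locus of the list overlapped a miR166 precursor on either strand. PGSC0003DMB000000147 and PGSC0003DMB000000665 carried no other locus. On PGSC0003DMB000000010 the nearest were PotatoMir1001621391 and PotatoMir1003691513, both of 21 nt, with 110 and 248 reads, at 670.5 and 670.6 kb from MIR166A on the same strand. PotatoMir1005377443, of 24 nt and with 537 reads, lay 1898 kb away on that strand. On PGSC0003DMB000000125 the 1 other locus was PotatoMir1004979244, of 24 nt and with 205 reads, at 411.4 kb on the opposite strand to MIR166B. The miR166 loci were thus not part of a tight cluster with each other or with another miRNA of the list.

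PotatoMir1005257311 had 741106 reads and PotatoMir1005257691 had 66492 reads, counted once per distinct sequence over all libraries together. The 95% Poisson intervals were 739420 to 742795 reads and 65988 to 66999 reads. They cover counting error only and not the spread between libraries. Reads copied by PCR are not independent molecules, so the intervals may be too narrow. Of the 954147 reads in the list, PotatoMir1005257311 made up 77.7% (77.6 to 77.8%, Wilson interval at 95%). PotatoMir1005257691 made up 6.97% (6.92 to 7.02%). Both together had 807598 reads, or 84.6% (84.6 to 84.7%), against 146549 reads for the other 220 distinct sequences together.

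The step below the miR166 sequences was large, as the plot of reads by rank shows. The third sequence, PotatoMir1005931793, had 29010 reads, which is 3.04% of the list. It was followed by PotatoMir1005244514 with 19366 reads and PotatoMir1005779550 with 16205 reads, all 3 of 21 nt. PotatoMir1005257311 had 25.5 times and PotatoMir1005257691 had 2.29 times the reads of the third sequence. PotatoMir1005257311 also had 5.06 times the reads of the other 220 sequences combined. The median of those 220 was 17 reads (range 1 to 29010), and 167 of them had 100 reads or fewer. The list still holds sequences with fewer than 5 reads, which the study removed from its final set, and they lower this median. Within the 21-nt class, to which both miR166 sequences belong, they held 90.2% of 895385 reads (90.1 to 90.3%).

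**Figure D1:**
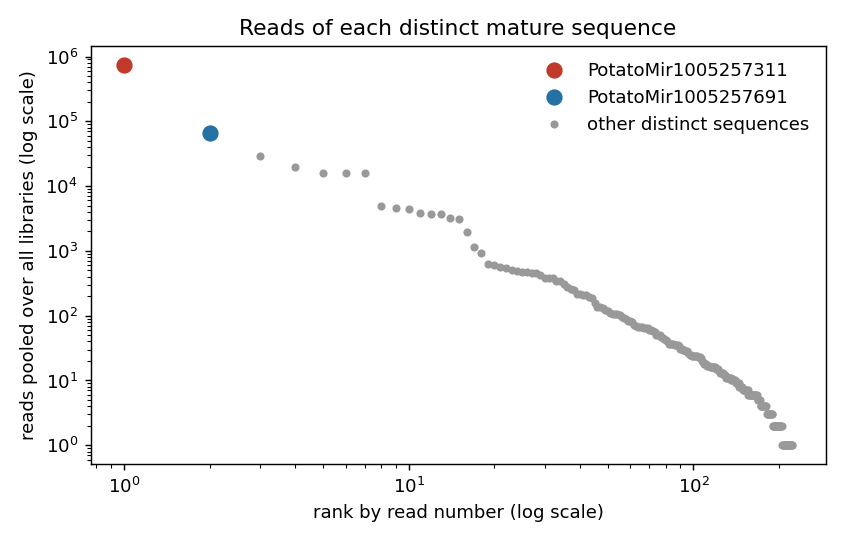
Reads pooled over all libraries (vertical, log scale) of each of the 222 distinct mature sequences by rank (horizontal, log scale), with each point 1 sequence. PotatoMir1005257311 at 741106 reads (red) and PotatoMir1005257691 at 66492 reads (blue) lie above the other 220 sequences (grey), the highest of which has 29010.

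The ratio of PotatoMir1005257311 to PotatoMir1005257691 was 11.1 (95% interval 11.1 to 11.2, counting error only). PotatoMir1005257691 thus gave 8.23% of the miR166 reads (8.17 to 8.29%). The list held 4 pairs of sequences of equal length that differ by 1 substitution, which were picked out after their read numbers were seen, and the miR166 pair had the largest ratio of the 4. PotatoMir1005377443 and PotatoMir1005377406 had 537 and 130 reads, a ratio of 4.13. The ratios of the remaining pairs were 3.75 for PotatoMir1003902287 over PotatoMir1005868687 and 1.86 for PotatoMir1000971035 over PotatoMir1000503124, at 15 reads or fewer per sequence.

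The reads of PotatoMir1005257311 could not be divided among MIR166A, MIR166C and MIR166D, since the same 21 bases occur at all 3. It was 1 of 44 distinct sequences of the list with more than 1 locus. The read number of PotatoMir1005257691 belonged to MIR166B alone within the list.

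The precursors of the 3 loci of PotatoMir1005257311 were 107 nt (MIR166A), 83 nt (MIR166C) and 77 nt (MIR166D), and MIR166B was 91 nt. The other 320 loci had a median of 85 nt (range 42 to 226 nt). Each deposited precursor was folded, and the minimum free energy was taken as the measure of stability, where a lower value is a more stable fold. It was -40.3 kcal/mol for MIR166A, -27.1 for MIR166C, -33.3 for MIR166D and -41.2 for MIR166B, with a median of -36.1 kcal/mol over the other loci (range -173.8 to -4.9).

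Longer precursors have lower energies, so the energy was also divided by length. It was then -0.38 kcal/mol per nt for MIR166A, -0.33 for MIR166C, -0.43 for MIR166D and -0.45 for MIR166B. The median was -0.43 over the other 320 loci and -0.44 over the other 96 loci of 21 nt. Ranked from the most stable, MIR166B was 133 of 324, MIR166D 158, MIR166A 214 and MIR166C 263. Among the 100 loci of 21 nt the ranks were 37, 53, 77 and 95 in the same order. The most abundant sequence of the list was thus found in hairpins of middle to low stability for their length. The GC content of the precursors was 38.3% for MIR166A, 49.4% for MIR166C, 44.2% for MIR166D and 37.4% for MIR166B, with a median of 37.5% over the other loci, so the precursor with the most GC was the least stable of the 4.

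**Figure D2:**
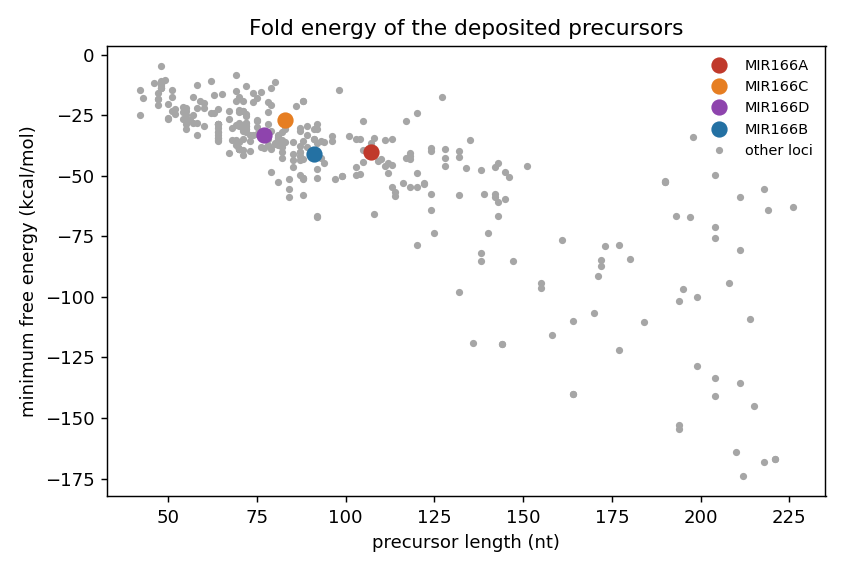
Minimum free energy in kcal/mol (vertical) of each deposited precursor by its length in nt (horizontal), with 1 point per locus, the 4 miR166 loci coloured and the other 320 grey. The miR166 precursors, from 77 to 107 nt and -41.2 to -27.1 kcal/mol, lie among the other loci of their length.

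The star sequences were read from the fold as the bases opposite the mature sequence, with a 3′ overhang of 2 nt at each end. They are shown to place the differences between the 4 duplexes. Bases without a pair in the duplex are in capitals.
Star at MIR166A: ggaatgTTgtctggCtcgagg
Star at MIR166C: ggaatgTTgtttggCtcgagg
Star at MIR166D: AgaatgTCgtctggttcgaga
Star at MIR166B: ggaatgTTgtttggttcgaaa
Each locus had a different star, although MIR166A, MIR166C and MIR166D share the mature sequence. A star read could therefore be assigned to 1 of the 4 loci, where a mature read of PotatoMir1005257311 could not. None of the 4 stars was itself a mature sequence of the list (0 of 222), and the read numbers of the stars were not analysed here.

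Over the 19 positions of the duplex, 16 bases of the mature sequence were paired at MIR166A, MIR166C and MIR166D and 17 at MIR166B. G:U pairs, in which G binds U in place of C, made up 2 of these at MIR166A and MIR166D and 3 at MIR166C and MIR166B. Mature positions 12 and 13 were unpaired at all 4 loci, opposite star positions 8 and 7. Position 5 was also unpaired at MIR166A and MIR166C, opposite star position 15, and position 19 at MIR166D, opposite star position 1. The number of mismatches was 3, 3 and 3 for the loci of PotatoMir1005257311 and 2 for MIR166B, with a median of 2 over the 323 loci of the list for which a star was found. There was no asymmetric bulge at any of the 4 loci.

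The criteria for a plant miRNA duplex were set at no more than 4 mismatches and no more than 1 asymmetric bulge of no more than 2 nt. The study filtered its own predictions by the same limits, so meeting them is not an independent check. All 4 miR166 loci met them, against 265 of all 324 loci (81.8%), so the miR166 loci were not set apart from the list by this rule. With G:U pairs counted as mismatches the miR166 loci had 5, 6, 5 and 5 mismatches (MIR166A, MIR166C, MIR166D and MIR166B), and 0 of 4 met the rule, against 179 of 324 loci (55.2%). The median number of G:U pairs over the 323 loci was 1.

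**Figure D3:**
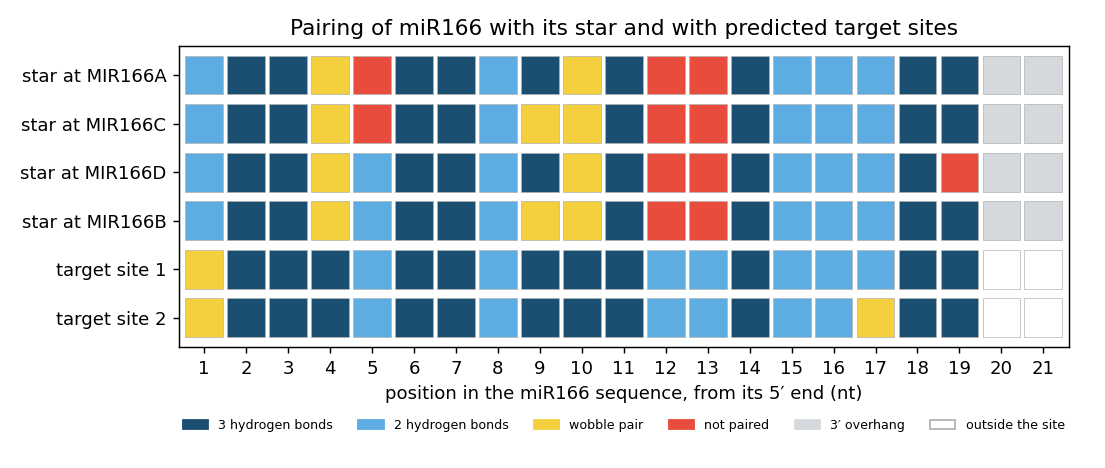
State of each base of the miR166 sequence (position from the 5′ end, horizontal) against the star at each locus and against both predicted target sites (rows), coloured by pair type. Positions 12 and 13 are unpaired at all 4 loci and paired in both target sites, and positions 20 and 21 lie in the overhang or outside the site.

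The loci differed in pairing where their stars differed. Star positions are counted from 1 at the 5′ end, and in each token the base of the first locus named comes first. Of the 21 star positions, 15 were identical at all 4 loci, and positions 1, 8, 11, 15, 20 and 21 varied. From MIR166A to MIR166C the single change was C11T, opposite mature position 9, where the G:C pair of MIR166A was a G:U pair at MIR166C. From MIR166A to MIR166D the changes were G1A, T8C, C15T and G21A. C15T lay opposite the A at mature position 5, which was paired at MIR166D, and G1A lay opposite mature position 19, which was not. From MIR166A to MIR166B the changes were C11T, C15T, G20A and G21A, so MIR166B had both the A:U pair at mature position 5 and the G:U pair at position 9. G:U pairs at mature positions 4 and 10 were shared by all 4 loci.

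The base that distinguishes the mature sequences, C20T, lay in the 3′ overhang and had no partner in the duplex at any locus. The deposited precursors begin with the star and end with the mature sequence, so this was fixed in advance. Pairing of that base in a longer stem was not examined. The energy of the duplex alone was -24 kcal/mol at MIR166A, -21.5 at MIR166C, -24.6 at MIR166D and -26.6 at MIR166B. The locus of PotatoMir1005257691 thus had the most stable duplex of the 4, and MIR166C the least stable.

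In plants and animals the strand whose 5′ end is less tightly paired tends to be kept. Hydrogen bonds were therefore counted over the 4 pairs at each end of the duplex. At the 5′ end of the mature sequence (positions 1 to 4) there were 10 at every miR166 locus. At the other end (positions 16 to 19) there were 10 at MIR166A, MIR166C and MIR166B and 7 at MIR166D. By this count of 4 pairs the 5′ end of miR166 was not the more weakly paired end at any of its 4 loci. By the same count, the mature 5′ end had fewer hydrogen bonds at 139 of the 323 loci of the list (43.0%). Mature position 5, unpaired at MIR166A and MIR166C, lay just outside the count, and longer windows were not counted. A G:U pair was given 2 hydrogen bonds, as was an A:U pair.

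Pair probabilities take all possible folds of a precursor into account, and the means for the mature and star bases were highest at MIR166B. The mean probability that a base of the mature sequence was paired was 0.808 at MIR166B, 0.761 at MIR166D, 0.756 at MIR166A and 0.755 at MIR166C. The star means were 0.903, 0.856, 0.804 and 0.804 in the same order. Position 5 of the mature sequence had a probability of 0.0076 at MIR166A and 0.0077 at MIR166C. The longest helix without interruption that included mature bases was 21 base pairs at MIR166B and 15 at MIR166D, but 6 at both MIR166A and MIR166C. Mature positions 1 to 11 thus lay in a single unbroken helix at MIR166B and MIR166D, and in a helix broken at position 5 at MIR166A and MIR166C.

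**Figure D4:**
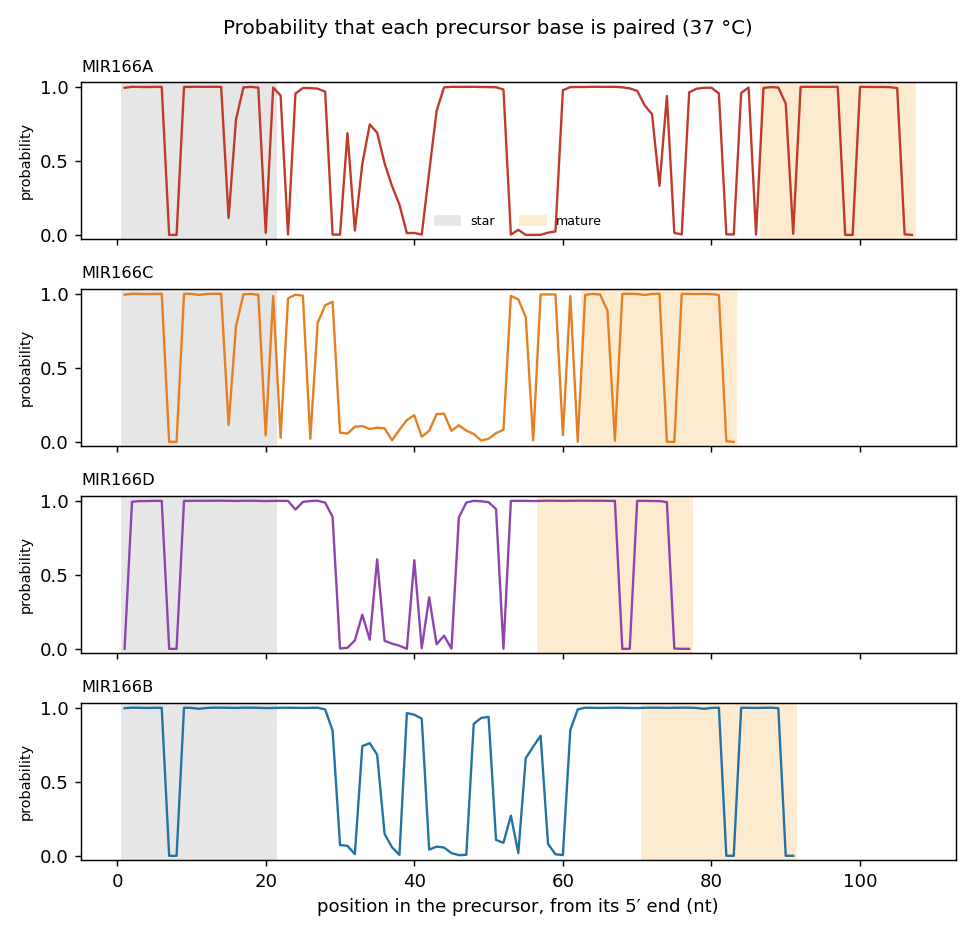
Probability that each base is paired at 37 °C (vertical) along the 4 precursors from the 5′ end (horizontal, nt), with the star shaded grey and the mature sequence orange. The mature mean is 0.808 at MIR166B and 0.755 at MIR166C, and the dip inside the mature sequence near its 5′ end appears at MIR166A and MIR166C.

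The segment between star and mature sequence varied most. It was 65 nt at MIR166A, 41 nt at MIR166C, 35 nt at MIR166D and 49 nt at MIR166B. Its GC content was 24.6% at MIR166A, 41.5% at MIR166C, 31.4% at MIR166D and 28.6% at MIR166B. The mean pair probability of this segment was 0.624 at MIR166A, 0.353 at MIR166C, 0.564 at MIR166D and 0.587 at MIR166B. At MIR166C 11 of 41 bases had a probability over 0.9, against 34 of 65 at MIR166A, 16 of 35 at MIR166D and 21 of 49 at MIR166B, so MIR166C had the most open loop.

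Over the 6 pairs of loci, identity averaged 83.3% in the star (range 76.2 to 95.2%), 66.8% over the whole precursor (59.1 to 73.6%) and 48.5% between star and mature sequence (38.2 to 61.2%). The stars of MIR166A and MIR166C were most alike, with 20 of 21 bases identical, although their loop segments shared 46.3%. MIR166D and MIR166B had the most similar precursors (73.6%) and loop segments (61.2%), although their mature sequences differ and their stars shared 17 of 21 bases. Over aligned positions with gaps counted, the lowest values were 59.1% and 38.2% for precursor and loop segment of MIR166A and MIR166D, the longest and the shortest precursor. Counted over the shorter sequence of each pair, the precursors of MIR166A and MIR166D shared 84.4%, and the lowest value was 77.9% for MIR166C and MIR166D. By that count the pairs that share the mature sequence had 86.8%, 84.4% and 77.9%, against 87.0%, 78.3% and 78.0% for the pairs with MIR166B, so the order of the pairs depended on how gaps were counted.

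**Figure D5:**
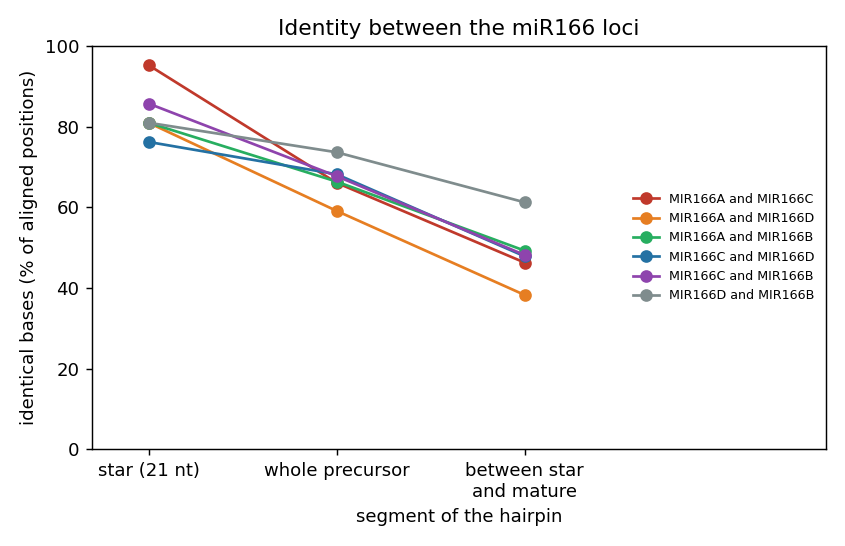
Identical bases in percent of aligned positions (vertical) for the star, the whole precursor and the segment between star and mature sequence (horizontal), with 1 line per pair of miR166 loci. Star identity (76.2 to 95.2%) is above that of the segment between star and mature sequence (38.2 to 61.2%) in all 6 pairs. The stars are of equal length, but the segments run from 35 to 65 nt and gaps count as not identical. Unequal length alone thus limits the segment values.

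The target prediction of the study lists the same 11 transcripts for both miR166 sequences, with 2 different sites. The study predicted targets under a stringent and a relaxed pairing limit, so these 11 may not be every transcript it lists for miR166. The sites are shown to compare them with the star, the other sequence that pairs with miR166. Bases that form no Watson-Crick pair with miR166 are in capitals.
Site 1: ggaatgaagcctggtccgG
Site 2: ggGatgaagcctggtccgG
Site 1 is given for PGSC0003DMT400006735, PGSC0003DMT400068035, PGSC0003DMT400068037, PGSC0003DMT400068038 and PGSC0003DMT400068039, all annotated as DNA binding proteins. Site 2 is given for PGSC0003DMT400020801, also a DNA binding protein, and for PGSC0003DMT400030829, PGSC0003DMT400054420, PGSC0003DMT400054421, PGSC0003DMT400054422 and PGSC0003DMT400054423, annotated as PHAVOLUTA-like HD-ZIP III proteins. In Arabidopsis PHAVOLUTA is a known target of miR165 and miR166. Several of these transcripts may be isoforms of 1 gene, so the 11 are not independent sites.

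The pairing was computed again from the deposited mature sequences. The study listed these sites for their close pairing, so low scores and few mismatches follow from that choice. Site 1 had 18 Watson-Crick pairs, 1 G:U pair at mature position 1 and 0 mismatches. Site 2 had 17 Watson-Crick pairs, 2 G:U pairs at mature positions 1 and 17 and 0 mismatches. When a G:U pair cost 0.5 and a mismatch cost 1, the score was 0.5 for site 1 and 1 for site 2, where 0 is perfect pairing. Both sites as listed cover mature positions 1 to 19, so the base of C20T was not scored. The equal score of the 2 miR166 sequences at each site follows from that. The transcript bases beyond the listed sites were not examined, so the effect of C20T on target pairing was not tested. With the sites as listed, the duplex energies were -37.9 kcal/mol for PotatoMir1005257311 and -38.3 for PotatoMir1005257691 at site 1. At site 2 they were -37.4 and -37.8 kcal/mol in the same order.

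Both sites had lower computed duplex energies with miR166 than its own stars, with -38.3 to -37.4 kcal/mol for the sites and -26.6 to -21.5 kcal/mol for the stars. The sites had been picked for close pairing with miR166 and the stars had not, so the comparison is a description only. Site 1 differed from the first 19 bases of the star at 6 positions for MIR166A, MIR166D and MIR166B and at 7 for MIR166C, and site 2 at 7, 7, 7 and 8. In tokens that give the site base first and positions from the 5′ end of the site, the changes from site 1 to the star of MIR166A were A7T, A8T, C10T, T15C, C16T and G19A. A7T and A8T lay opposite the unpaired mature positions 13 and 12, T15C opposite the unpaired position 5, and C10T and C16T opposite the G:U pairs at positions 10 and 4. G19A lay opposite mature position 1, the single place where the star had a Watson-Crick pair and the site a G:U pair. No transcript level was measured in these libraries, so the listed sites are predictions from sequence.

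No other sequence of the list was close to miR166. The nearest was 10 edits (substitutions, insertions or deletions) from PotatoMir1005257311, a distance held by 12 sequences. It was 9 edits from PotatoMir1005257691, held by PotatoMir1005907528 and PotatoMir1005931998. The number of other sequences within 3 edits was 0, and 0 shared the seed. Over bases 2 to 7 alone, 3 sequences of 24 nt shared the miR166 bases, namely PotatoMir1001522481 with 6 reads and PotatoMir1001522651 and PotatoMir1001522652 with 3 reads each. The reverse complement of a miR166 sequence was not an entry of the list (0 of 222), and 0 precursors of other entries contained a miR166 sequence on either strand. The list thus held no length variant of miR166 and no miRNA from its opposite strand. The study removed redundant predictions, and the reads themselves were not searched here, so such sequences may still occur among the reads.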

How the data were processed

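The authors trimmed the reads with Cutadapt (version 1.1 in the submitters' processing notes), removed other RNA classes with cross_match, filtered by length, aligned to the DM superscaffolds with Bowtie without mismatches, folded with RNAfold and predicted with miRDeep-P. By the methods of the study, redundant predictions were then removed and the rest filtered by the criteria for the duplex. Predictions with fewer than 5 reads were removed last, but the deposited list still holds such sequences. Counts and medians over the list include them unless a read minimum is stated. Other versions are not given in the sources used here. The deposited list gives whole-number read counts, not normalized and pooled over 12 libraries, in each identifier. It holds no values of single libraries, so groups were not compared and no test was made. The members and the lists were chosen with earlier results of these data known.

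Precursors were folded with ViennaRNA 2.7.2 at 37 °C. The star was the strand opposite the mature sequence with an overhang of 2 nt. Identity was computed by global alignment in Biopython 1.88 (match 1, mismatch -1, gap opening -2, extension -0.5). Target sites, transcript names and annotations came from the study's prediction, and pairing was computed from the deposited sequences. Intervals are 95% Wilson, Poisson or exact binomial. The sequences named are the members, the 3 next by reads, the nearest relatives, any that share the seed and the neighbours on the same superscaffold. Pairs that differ by 1 base were added after their values were seen. Alternatives changed the read minimum, the counting unit, the fold, the G:U rule and the alignment. The procedures were tested on simulated data, using Python 3.11.15, NumPy 2.4.6, SciPy 1.17.1 and Matplotlib 3.10.9.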

Additional observations from a re-analysis of the deposited data

How the results depend on the processing

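A minimum of 5 or 10 reads moved no share by more than its interval. With reads summed over loci, which counts PotatoMir1005257311 at each of its 3 loci, the miR166 share was 91.2% in place of 84.6%, with 88.6% for PotatoMir1005257311 and 2.65% for PotatoMir1005257691, and their ratio was 33.4 in place of 11.1. Over 21-nt sequences alone the shares were 90.2%, 82.8% and 7.43% in the same order. The median minimum free energy of the 4 loci was -36.8 kcal/mol, -50.7 at 20 °C, -35.9 without dangling ends and -0.40 per nt. The structure itself was identical at all 4 loci at 20 °C, without dangling ends and as the structure of maximum expected accuracy. The duplex rule was met by 0 of 4 loci in place of 4 with G:U pairs as mismatches. Mean precursor identity was 82.1% over the shorter sequence in place of 66.8%, and 63.5% with gap penalties doubled. Over the shorter sequence MIR166A and MIR166D no longer had the lowest identity of the 6 pairs. With a G:U pair scored as 1 the target score was 1 in place of 0.5 for site 1 and 2 in place of 1 for site 2. Over bases 2 to 7, 3 other sequences shared the seed in place of 0. No paired analysis was possible because the list holds no values of single libraries. Read numbers are pooled, so library depth and replicate error are unknown, and the intervals cover counting error only.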
